A study of Onthophagus taurus with 66 samples.

Results

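The comparison described here is that of the medial anterior region (MA) with the medial posterior region (MP) of the dorsal head in female *Onthophagus taurus*, a dung beetle whose males grow a pair of horns at the back of the head while females remain hornless. It rests on 10 of the 66 libraries of the series, 5 from MA and 5 from MP, chosen as every female library whose label names either region, and each of 5 untreated females gave 1 library of each. The pieces were cut from the dorsal head epithelium of pre-pupae, the stage just before the pupal moult, after brain, muscle and eye remnants had been removed. Each animal also gave left and right pieces of the lateral anterior (LatA) and lateral posterior (LatP) regions, and 6 males were dissected in the same way. The beetles were of laboratory colonies founded from wild collections in 2 countries, and which animal came from which colony is not given in the sources used here. Polyadenylated RNA was sequenced with a stranded protocol.

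The insect head capsule is formed from several fused segments, and its dorsal surface is covered by an epidermis that is patterned along the anterior to posterior axis by transcription factors and by secreted signals such as Hedgehog and Wnt proteins. In flies, Hedgehog is made by cells that express the homeobox genes *engrailed* and *invected*, and neighbouring cells respond through the transcription factor Cubitus interruptus. The same epidermis secretes the cuticle, a layer of chitin and structural proteins that is later hardened and coloured by phenolic compounds.

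The 10 libraries held 11550471 to 15679484 counts each, between 12577355 and 15071671 in MA and between 11550471 and 15679484 in MP. Levels are given as CPM, the usual depth-scaled count of a transcript, with library sizes scaled by TMM, and the values of the 5 animals are always listed in the order 1 to 5. A count of 3, used as the floor of detection in each library, corresponds to 0.184 to 0.337 CPM, and where all 5 libraries of a region lay at or under it the fold is a lower bound against the highest floor of that region. No molecular identifiers were used, and a floor of this kind allows for counting error alone. All 10 libraries resembled their own region more than any other when set against the region means of the other 4 females, over the 500 transcripts that varied most between regions, with correlations of 0.543 to 0.626 for MA and 0.506 to 0.681 for MP. Among the 30 female libraries the exceptions were left LatA of animal 2, closest to LatP (0.0844, against -0.0862 with LatA), and its right LatA, closest to MA by a small margin (0.342, against 0.334 with LatA). Both touch only the comparison with the lateral head.

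Of 12978 transcripts tested, 117 (0.902%) differed between the regions, 64 (0.493%) higher in MA and 53 (0.408%) higher in MP, in edgeR's quasi-likelihood test with the animal as a replicate block and a Benjamini-Hochberg adjusted p under 0.05. The median log2 fold change (log2FC, MA over MP) was 2.15 among the 64 calls higher in MA and -1.95 among the 53 higher in MP, against 0.01 over all transcripts tested. The largest log2FC in each direction belonged to a transcript of *Sp8*, at 9.42, and to *drumstick*, at -8.54, both fitted against a region with 3 counts or fewer in every library, where the value depends on a small added count. The smallest adjusted p was 0.0115, and 1802 transcripts (13.9%) had an unadjusted p under 0.05. The difference had the same sign in all 5 animals for 115 of the 117 calls, and for 16.4% of all transcripts tested. The exceptions were XM_023065059.1, which was higher in MA of 3 animals and had no count in either piece of 2, and XM_023055266.1, higher in MA of 4 and without counts in animal 2; both were chosen after their values were seen. In 63 of the 117 calls (33 toward MA and 30 toward MP) the MA and MP values did not overlap, as against 3.15% of all transcripts tested (1.89% higher in MA and 1.26% higher in MP). In the other 54 the values overlapped. Few calls stood without any one animal: 20 of the 117 without animal 1, 28 without animal 2 and 14 without animal 3. Those fits called 23, 32 and 16 transcripts in all. In edgeR, 0 were called without animal 4 or without animal 5, where 1385 and 1377 had an unadjusted p under 0.05. All 117 were also called by DESeq2 with the same block, which called 1232 in all.

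**Figure D1:**
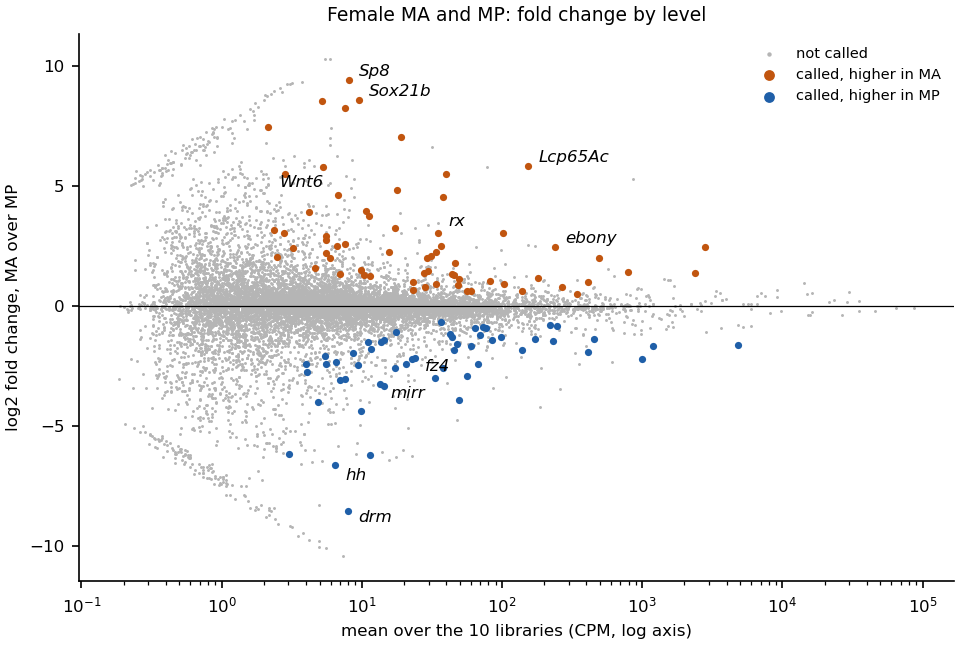
Each point is 1 of the tested transcripts, with the mean over the 10 libraries on the x axis (CPM, log axis) and the log2FC of MA over MP on the y axis. The 64 calls higher in MA (orange) and 53 higher in MP (blue) lie between 9.42 and -8.54, and grey points are not called, among them the diagonal edges formed by transcripts with no count in 1 region.

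*Hedgehog* shared the smallest adjusted p with *Sp8* and 7 other transcripts and was close to absent from MA. Its transcript XM_023044715.1 stood at 0.159, 0.0821, 0.0719, 0.2 and 0.0708 CPM in MA, against 11.4, 22.2, 9.59, 13.4 and 7.41 CPM in MP. No MA library exceeded 3 counts, the regions were far apart in every animal, and the level was at least 52.0-fold higher in MP (log2FC = -6.62, adjusted p = 0.0115). The homeobox genes that accompany *hedgehog* in fly segments had values of the same sign without being called in the transcript fit; DESeq2 with the block called both. *Invected* (XM_023054032.1) was at 0.0794, 0, 0, 0 and 0 CPM in MA, against 1.16, 4.15, 3.44, 5.61 and 5.02 CPM in MP (adjusted p = 0.0645), and *engrailed* (XM_023054067.1) reached at most 0.159 CPM in MA and at most 2.02 CPM in MP (adjusted p = 0.196). MA and MP values did not overlap for either. A fit on counts summed per gene tested 10565 units, with transcripts matched to no gene entered alone, and called *invected* (adjusted p = 0.0187) but not *engrailed* (adjusted p = 0.0934). Both entered it as the single transcripts above, XM_023054032.1 and XM_023054067.1. *Wingless*, *notum*, *Dichaete*, *fd102C*, *mab-21* and *C15* below also entered as single transcripts, so no counts were added for them.

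The transcription factor that reads the Hedgehog signal, *cubitus interruptus*, gave different answers per transcript and per gene. Transcript XM_023057586.1 had 3.02, 3.78, 0, 0 and 1.27 CPM in MA, against 18.2, 38.0, 0, 13.5 and 0 CPM in MP (log2FC = -2.73, SE 2.20, adjusted p = 0.688), so that animals 3 and 5 had no count of it in MP. The other annotated form named by the study, XM_023057592.1, was at no more than 2.54 CPM in MA and at 9.56, 9.09, 11.7, 13.2 and 16.3 CPM in MP (adjusted p = 0.193). Summed over the 3 transcripts of the gene, the level was 3.34, 6.48, 8.56, 3.47 and 3.40 CPM in MA and 51.9, 47.1, 25.9, 44.2 and 32.1 CPM in MP, with no overlap (log2FC = -3.06, SE 0.36, adjusted p = 0.0152 in the fit on gene sums). The authors' counter, RSEM, divides reads between transcripts of a gene, and the part of that division in the transcript values was not tested. Of the 5 listed Hedgehog pathway transcripts tested, 1 was called, *hedgehog*, against 0.902% of all transcripts tested, and all 5 had a negative log2FC (median -4.87). Of these, *hedgehog*, *invected* and *engrailed* were at or under the floor in all MA libraries. Names for the Hedgehog list came from the study's own calls on these samples, so the shared sign is not independent evidence. No Hedgehog receptor could be matched by name.

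Wnt pathway members had both signs. *Wnt6*, a secreted ligand, measured 12.8, 12, 12.5, 12.5 and 15.3 CPM in MA, against 0.385, 0.449, 0.922, 0.769 and 0.245 CPM in MP for XM_023058527.1. The MA values varied little among animals and none came near the MP range (log2FC = 4.63, SE 0.39, adjusted p = 0.0147). The *wingless* transcript (XM_023058498.1), the founding Wnt ligand of the fly, was at 2.70, 2.13, 2.09, 3.34 and 3.90 CPM in MA and at 0.154, 0, 0.0615, 0.384 and 0 CPM in MP; the regions did not overlap, and it was called in the fit on gene sums (adjusted p = 0.0393) and by DESeq2 with the block but not in the transcript fit (log2FC = 4.96, SE 1.02, adjusted p = 0.108). *Notum*, an extracellular enzyme that inactivates Wnt ligands, lay between 0.647 and 1.59 CPM in MA and reached 0.154 CPM in MP (XM_023055718.1, adjusted p = 0.139, and 0.0542 on gene sums).

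The receptor moved the other way from the ligand. For *frizzled 4* (XM_023052917.1), a member of the membrane receptor family that binds Wnt proteins, MA values were 6.04, 7.55, 12.2, 6.08 and 9.99 CPM and MP values were 27.1, 21, 51.5, 35.4 and 60.6 CPM. Every MP library exceeded every MA library (log2FC = -2.18, SE 0.19, adjusted p = 0.0169). The intracellular members were not called: *axin*, a scaffold that promotes beta-catenin breakdown, had a log2FC of 0.58 (XM_023049346.1, SE 0.24, adjusted p = 0.372) and *dishevelled*, which relays the receptor's signal, 0.32 (XM_023050771.1, SE 0.55, adjusted p = 0.867). Summed over the 5 transcripts of its gene, *dishevelled* had the other sign (log2FC = -0.32, SE 0.08, adjusted p = 0.108 in the fit on gene sums). These sums did not overlap, at 37.0 to 43.1 CPM in MA and 44.1 to 53.3 CPM in MP. The sum over the 4 transcripts of *axin* had a log2FC of 0.17 (SE 0.11, adjusted p = 0.491). Of 6 listed Wnt pathway transcripts tested, 1 was higher in MA and 1 was higher in MP, against 0.493% and 0.408% of all transcripts tested. This list too was limited to transcripts named by the study, so its counts are not independent evidence.

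**Figure D2:**
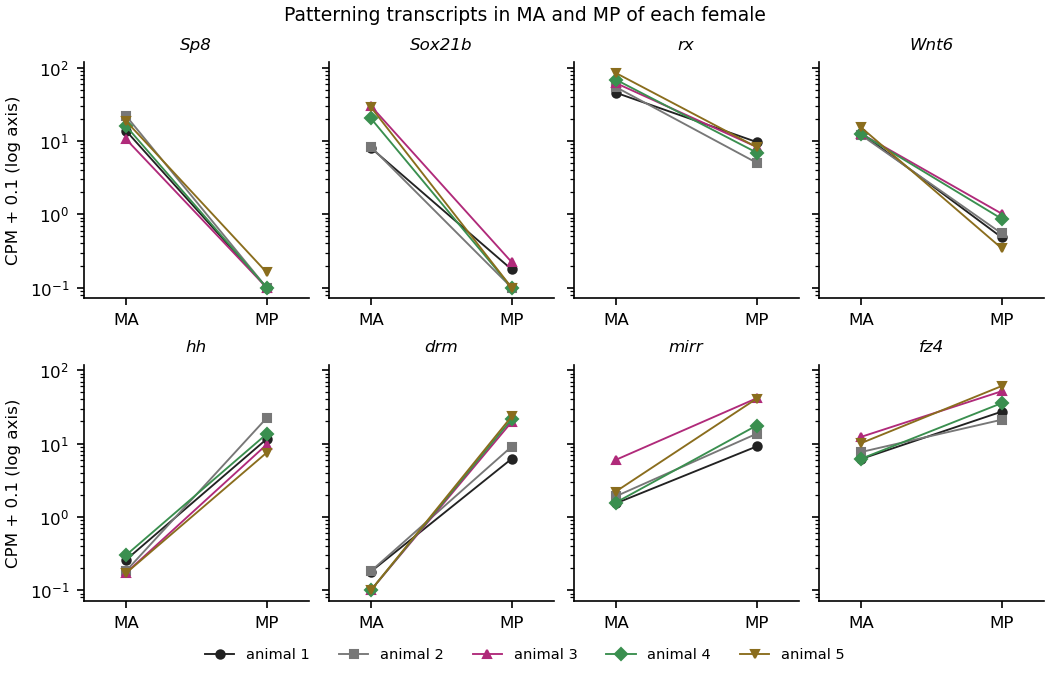
Level of 8 patterning transcripts in MA (left) and MP (right) of each female, as CPM + 0.1 on a log axis, with a line and symbol per animal. Lines of *Sp8*, *Sox21b*, *rx* and *Wnt6* fall to MP and those of *hh*, *drm*, *mirr* and *fz4* climb in all 5 animals.

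Transcripts listed as anterior or posterior head factors, most of them of transcription factors, were divided between the regions. Of 16 anterior factor transcripts tested, 6 were higher in MA, and of 20 posterior factor transcripts tested, 8 were higher in MP. The other 22 of the 36 were not called by edgeR, which gave 33 of the 36 an unadjusted p under 0.05, while DESeq2 with the block called 30 of the 36, 12 anterior and 18 posterior. Over all 12978 transcripts, edgeR called 0.902% and gave 13.9% an unadjusted p under 0.05, and DESeq2 with the block called 1232. The median log2FC was 3.53 over the anterior and -4.59 over the posterior list, or 3.36 and -3.32 with the 6 and 8 transcripts at the floor in 1 region set to their lower bounds. Names for both lists came from the study's own calls on these samples, and the lists were drawn up with earlier results known, so their directions are not independent evidence. None of the 14 called transcripts had overlapping MA and MP values, and 12 of the 14 were also called without the replicate block. Among all 117 calls, 63 had no overlap and 43 were also called without the block.

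*Sp8*, a zinc finger transcription factor known for its role in appendage outgrowth, had the largest log2FC of all calls. The transcript XM_023050882.1 was at 13.7, 22, 10.5, 15.9 and 18.6 CPM in MA and at 0, 0, 0, 0 and 0.0612 CPM in MP. With hardly a read in any MP library, it was at least 47.9-fold higher in MA (log2FC = 9.42, adjusted p = 0.0115). A further transcript of the same gene, XM_023050883.1, was at 9.69, 1.48, 2.3, 5.28 and 2.69 CPM in MA and had 3 counts or fewer in every MP library, at least 12.7-fold higher in MA (adjusted p = 0.0393).

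*Sox21b* (XM_023057866.1), which encodes an HMG-box factor of the SoxB group, ranged more widely among animals, with 7.94, 8.21, 29.9, 20.2 and 28.8 CPM in MA and 0.0771, 0, 0.123, 0 and 0 CPM in MP. It was at least 56.4-fold higher in MA (adjusted p = 0.0147), and animals 1 and 2 were the lowest in MA. Its relative *Dichaete* (XM_023057893.1) had 5.72, 4.43, 14.8, 11.6 and 18.3 CPM in MA and no count in MP, at least 32.6-fold. It missed the threshold in the transcript fit (adjusted p = 0.124). On gene sums, where the same counts entered as a single transcript, it passed (adjusted p = 0.0372). The forkhead gene *fd102C* (XM_023046601.1) likewise had no count in MP and between 2.09 and 15.9 CPM in MA (adjusted p = 0.161, and 0.0521 on gene sums).

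*Retinal homeobox* (*rx*), a regulator of the anterior brain and labral region in insects, was present in both regions but stronger in front. Its values were 45.3, 54.1, 61.3, 68.3 and 84.2 CPM in MA, against 9.56, 4.94, 8.18, 6.84 and 8.14 CPM in MP (XM_023059686.1). The lowest MA library stood well above the highest MP library (log2FC = 3.06, SE 0.22, adjusted p = 0.0123). The T-box factor *midline* (XM_023057045.1) measured 33.4, 36.8, 88.4, 44.5 and 73.9 CPM in MA and 13.6, 5.27, 18.8, 7.61 and 14 CPM in MP (log2FC = 2.25, SE 0.24, adjusted p = 0.0284). For *deadpan* (XM_023061919.1), a bHLH repressor best known from fly neuroblasts, MA held 24.4, 27.7, 8.99, 23.4 and 14.9 CPM and MP held 2.23, 0.898, 0.492, 2.92 and 0.673 CPM (log2FC = 3.95, SE 0.34, adjusted p = 0.0152).

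*Cap'n'collar*, a bZIP factor of the fly mandibular segment and labrum, was measured per transcript and per gene. Transcript XM_023045049.1 was at 58.9, 58.1, 51.9, 78.4 and 61.9 CPM in MA and at 0, 0, 2.15, 3.38 and 0 CPM in MP, so 3 MP libraries had no count of it (log2FC = 6.61, SE 1.21, adjusted p = 0.0887). Summed over the 3 transcripts of the gene, MA had 94.1, 108.0, 80.0, 121.0 and 104.0 CPM and MP had 30.3, 25.7, 37.8, 50.7 and 39.0 CPM, and the log2FC was 1.48 (SE 0.15, adjusted p = 0.0106). Among the other listed anterior factors, *knirps*, a nuclear receptor type gap factor, was at 0, 0, 2.88, 0.401 and 0.779 CPM in MA and at 0, 0, 1.78, 0.154 and 1.53 CPM in MP (XM_023047875.1, adjusted p = 0.936). *Sloppy paired* (XM_023045958.1) lay under 2.27 CPM in all but 1 library and was not called (adjusted p = 0.294), and *crocodile* and *lim1* were too low to be tested, with at most 3 and 1 counts in an MA library and 17 and 3 in an MP library. The single anterior factor with a negative log2FC was the Hox gene *labial* (XM_023063575.1), with 0.238, 0.0821, 0.216, 0.2 and 0.283 CPM in MA and 0.231, 2.69, 1.97, 0.769 and 2.27 CPM in MP, higher in MP of 4 animals (log2FC = -2.58, SE 0.87, adjusted p = 0.275).

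Among the posterior factors, the zinc finger genes of the odd-skipped family had hardly a read in MA. *Drumstick* (XM_023046385.1) had 0.0794, 0.0821, 0, 0 and 0 CPM in MA and 6.09, 8.98, 19.6, 21.4 and 23.3 CPM in MP, at least 64.5-fold higher in MP (log2FC = -8.54, adjusted p = 0.0258). *Sister of odd and bowl* (XM_023046386.1) was at no more than 0.142 CPM in MA and at 2.39, 2.36, 8.55, 5.00 and 11.4 CPM in MP, at least 24.2-fold (adjusted p = 0.0147). For both, animals 1 and 2 had the lowest MP values. In assembly IU_Otau_3.0 the genes of these transcripts are neighbours. The third family member, *bowl* (XM_023045113.1), had no count in MA and at most 1.35 CPM in MP, and was not called (adjusted p = 0.474).

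The Iroquois homeobox genes, which subdivide the dorsal head and thorax of the fly, showed smaller folds on a higher background. *Mirror* (XM_023058224.1) was at 1.43, 1.81, 5.90, 1.47 and 2.12 CPM in MA and at 9.02, 13.5, 41.3, 17.5 and 40.8 CPM in MP (log2FC = -3.23, SE 0.29, adjusted p = 0.0175). The transcript matched to *araucan* (XM_023044165.1) measured 4.45, 3.53, 5.11, 4.88 and 5.31 CPM in MA, against 14, 23.2, 32.5, 32.9 and 47.1 CPM in MP (log2FC = -2.59, SE 0.24, adjusted p = 0.0176). Animal 1 had the lowest MP value for each.

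*Orthodenticle* (*otd*), the homeobox gene of the fly head vertex and ocelli, was represented by 3 transcripts. XM_023053510.1 had 4.85, 7.30, 11.8, 6.01 and 12.3 CPM in MA and 42.1, 40.8, 39.7, 31.1 and 32.4 CPM in MP (log2FC = -2.22, SE 0.28, adjusted p = 0.0393). XM_023053509.1, of the same gene, was absent from 3 MA libraries and had 6.16, 6.28, 20.2, 11.8 and 20.6 CPM in MP (adjusted p = 0.0901). Summed over the gene's 3 transcripts, the log2FC was -2.59 (SE 0.22, adjusted p = 0.00542). XM_023053571.1 belongs to another gene with the same best hit; it had no count in MA and 7.01, 5.61, 8.06, 0 and 3.24 CPM in MP (adjusted p = 0.193), and with the other transcripts of that gene added the fit on gene sums gave an adjusted p of 0.0428.

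Of the remaining posterior factors, 3 were called. *Hairy* (XM_023054958.1), a bHLH repressor, was at 2.22, 3.28, 1.44, 3.67 and 4.18 CPM in MA and at 9.94, 20.6, 12.9, 20.8 and 15.3 CPM in MP (log2FC = -2.46, SE 0.22, adjusted p = 0.0176). *Aristaless* (XM_023054237.1), a homeobox gene of appendage tips, was at 0.318, 1.72, 1.08, 2.27 and 1.63 CPM in MA and at 3.47, 7.52, 6.95, 7.46 and 7.77 CPM in MP (log2FC = -2.39, SE 0.29, adjusted p = 0.0393, and 0.0922 without the block). *Stripe* (XM_023063843.1), an early growth response factor that marks tendon cells in the fly, had 1.35, 0.492, 4.03, 1.34 and 2.27 CPM in MA and 12.6, 11.1, 14.8, 9.92 and 17.8 CPM in MP (log2FC = -3.03, SE 0.39, adjusted p = 0.0428). In each of these the lowest MP library exceeded the highest MA library.

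Several posterior factors with wide gaps were not called in the transcript fit. *Pannier* (XM_023045326.1), a GATA factor of the fly dorsal midline, had no count in MA and 2.93, 2.58, 5.17, 9.53 and 15.1 CPM in MP, at least 28.7-fold (adjusted p = 0.143). In the fit on gene sums it entered alone, not added to its other annotated isoform, and was called (adjusted p = 0.0442), while that isoform (XM_023045328.1) was not (adjusted p = 0.383). *Mab-21* (XM_023052984.1) was at 0.715, 0.164, 2.3, 0 and 0.0708 CPM in MA and at 6.63, 12.5, 90.8, 41.6 and 72.2 CPM in MP (log2FC = -6.25, SE 1.10, adjusted p = 0.0814, and 0.0231 on gene sums), and the homeobox gene *C15* (XM_023060389.1) had no count in MA and up to 5.75 CPM in MP (adjusted p = 0.22, and 0.0819 on gene sums). All 5 animals had the higher value in MP for XM_023045326.1, *mab-21* and *C15*. The other *pannier* isoform was higher in MP of 3 animals and in MA of 2, and its regions overlapped. The single posterior factor with a positive log2FC was the LIM homeobox gene *tailup*, at 0.96 (XM_023047735.1, SE 0.23, adjusted p = 0.145).

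**Figure D3:**
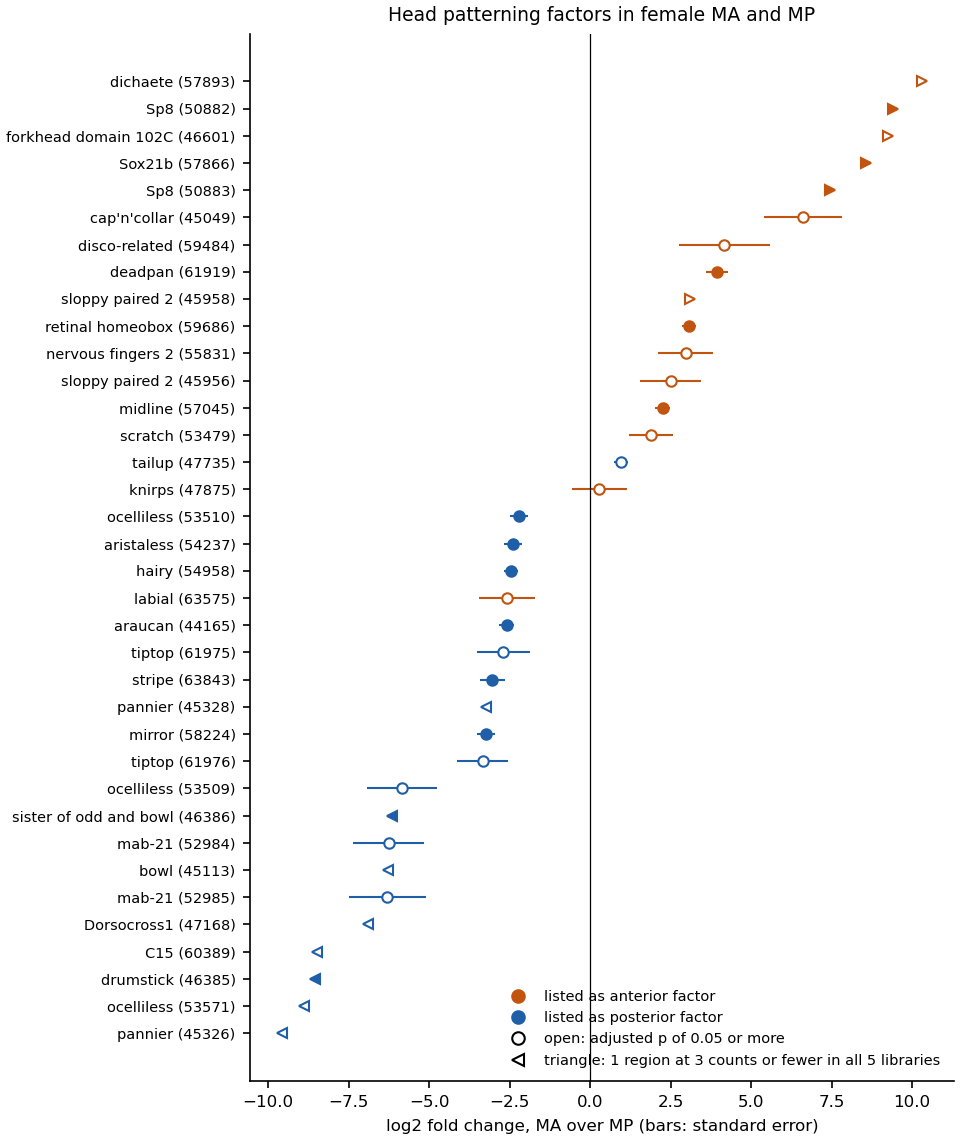
The log2FC of MA over MP for the 36 tested transcripts of head patterning factors, with the last digits of the identifier. Filled symbols are called, bars are standard errors, and triangles mark transcripts with 3 counts or fewer in every library of 1 region, whose fitted value depends on a small added count; the 6 called anterior factors (orange) lie at 2.25 or above and the 8 called posterior factors (blue) at -2.22 or below.

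Cuticle transcripts were called more often in the direction of MA. Of 33 tested, 11 were higher in MA and 2 were higher in MP, 20 were not called, and the median log2FC was 2.46. DESeq2 with the block called 28 of the 33, namely 17 structural, 5 glycine-rich, 3 chitin and 3 hardening transcripts. Over all 12978 transcripts, edgeR called 0.902% and DESeq2 with the block called 1232. By role, 7 structural cuticle proteins were higher in MA and 2 in MP of 21 tested. Of 5 glycine-rich secreted proteins, 2 were higher in MA. Of 4 transcripts listed under hardening and pigmentation, 2 were higher in MA: *ebony* and homogentisate 1,2-dioxygenase, an enzyme of tyrosine breakdown. None of the 3 transcripts for chitin synthesis and modification was called by edgeR, although 2 had an unadjusted p under 0.05 and DESeq2 with the block called 3. The names come from a table that holds only transcripts the study called on these samples, so these lists are neither complete nor independent. Cuticle proteins form families of similar sequence, and how RSEM divided reads between near-identical members was not tested.

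A pair of neighbouring genes with the larval cuticle protein Lcp65Ac as their best fly hit were among the largest differences. XM_023064026.1, annotated as pupal cuticle protein 27-like, had 25.3, 9.68, 17.0, 19.8 and 3.68 CPM in MA and 0.154, 0, 0, 0.0769 and 0 CPM in MP, at least 44.8-fold higher in MA (adjusted p = 0.0123). XM_023064023.1 was at 464.0, 314.0, 271.0, 337.0 and 116.0 CPM in MA and at 15.1, 11.8, 2.46, 2.84 and 1.78 CPM in MP (log2FC = 5.83, SE 0.46, adjusted p = 0.0145). Neither had overlapping regions, and animal 5 was lowest in MA for both.

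The glycine-rich secreted proteins all had higher values in MA in every animal. XM_023045749.1 was at 18.2, 18.7, 0.863, 10.9 and 2.97 CPM in MA and had counts in MP only in animal 2, at 0.112 CPM (at least 30.6-fold higher in MA, adjusted p = 0.0123). XM_023046278.1 measured 38.4, 31.3, 20.6, 42.9 and 37.3 CPM in MA and 3.70, 2.24, 0.184, 1.46 and 0.490 CPM in MP (log2FC = 4.82, SE 0.60, adjusted p = 0.0393). The other 3 had a log2FC between 5.81 and 6.10 and adjusted p between 0.0539 and 0.0832.

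Several cuticle transcripts varied widely between animals and were not called without the block. The transcript with TweedleE as its best hit (XM_023053302.1), a family of insect cuticle proteins that shape the body, had 40.8, 78.0, 2.80, 30.3 and 5.31 CPM in MA and 5.78, 5.5, 0.369, 2.61 and 0.673 CPM in MP. Animals 3 and 5 were lowest in both regions, the regions overlapped, and yet MA was higher within each animal (log2FC = 3.24, SE 0.20, adjusted p = 0.0115, and 0.338 without the block). The pro-resilin-like transcript XM_023044297.1 followed the same order, with 119.0, 69.7, 3.88, 58.5 and 3.33 CPM in MA and 31.5, 14, 1.35, 12.2 and 0.612 CPM in MP (log2FC = 2.09, SE 0.16, adjusted p = 0.0123, and 0.866 without the block).

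Other transcripts had the opposite order of animals. *Ebony* (XM_023055814.1), the enzyme that joins beta-alanine to dopamine in cuticle tanning, was highest in animals 3 and 5 in both regions, at 206.0, 125.0, 774.0, 261.0 and 700.0 CPM in MA and 52.3, 25.6, 103.0, 50.7 and 102.0 CPM in MP (log2FC = 2.46, SE 0.17, adjusted p = 0.0123, and 0.13 without the block). The cuticle protein 16.5-like transcript XM_023050861.1 was at 347.0, 181.0, 1481, 459.0 and 1558 CPM in MA and 135.0, 47.5, 287, 104.0 and 330.0 CPM in MP (log2FC = 2.01, SE 0.17, adjusted p = 0.0147, and 0.428 without the block). The ctenidin-1-like transcript XM_023063257.1 spanned the widest range of these, with 1.03, 1.31, 196.0, 15.6 and 172.0 CPM in MA and 0, 0, 6.52, 0.154 and 3.49 CPM in MP (log2FC = 5.52, SE 0.34, adjusted p = 0.0115, and 0.477 without the block). The regions overlapped for the last pair of these but not for *ebony*. What set animals 3 and 5 apart was not tested. The same 2 animals had the lowest values in both regions of the abundant transcript XM_023056928.1, with 47731, 43758, 12144, 36795 and 16584 CPM in MA and 56363, 46206, 4266, 29132 and 5913 CPM in MP.

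The remaining cuticle calls in MA were a further pro-resilin-like transcript, a transcript with cuticular protein 73D as its best hit, and homogentisate 1,2-dioxygenase, an enzyme of tyrosine breakdown. The pro-resilin-like transcript (XM_023051100.1) had 119.0, 139.0, 23.4, 78.9 and 7.22 CPM in MA and 3.85, 3.37, 1.29, 1.46 and 1.65 CPM in MP (log2FC = 4.54, SE 0.61, adjusted p = 0.045). The cuticular protein 73D transcript (XM_023058509.1) was steady in MA, at 4.37, 4.51, 5.25, 4.94 and 5.74 CPM, against 0.694, 0.337, 0.738, 0.307 and 1.16 CPM in MP (log2FC = 3.04, SE 0.36, adjusted p = 0.037). The dioxygenase (XM_023060909.1) had 5.01, 4.51, 4.60, 2.54 and 4.75 CPM in MA and at most 0.692 CPM in MP (adjusted p = 0.0463).

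The 2 cuticle transcripts higher in MP both carry the annotation adult-specific cuticular protein ACP-20-like. XM_023047534.1 had 2.54, 0.739, 0.288, 0.534 and 0.283 CPM in MA and 42.4, 28.8, 4.55, 13.8 and 4.16 CPM in MP (log2FC = -4.38, SE 0.27, adjusted p = 0.0115, and 0.0906 without the block). XM_023064424.1 had at most 0.657 CPM in MA and 5.47, 58.0, 6.15, 36.1 and 6.86 CPM in MP (log2FC = -6.20, SE 0.76, adjusted p = 0.0393, and 0.0555 without the block). The gene next to the first in assembly IU_Otau_3.0 was called as well: XM_023047533.1, which has no name in the sources used here, was at 8.50, 5.09, 0.575, 9.15 and 0.992 CPM in MA and at 278.0, 108.0, 14.8, 62.5 and 5.88 CPM in MP (log2FC = -3.91, SE 0.48, adjusted p = 0.0393, and 0.235 without the block). Animals 3 and 5 were the lowest in both regions for this neighbour.

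**Figure D4:**
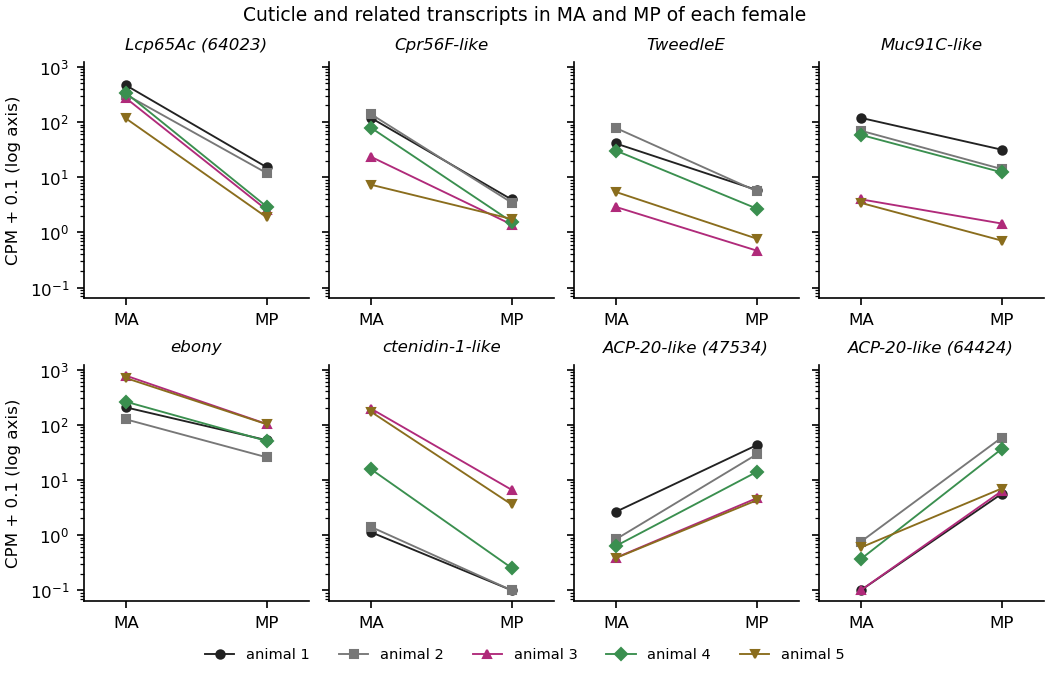
Level of 7 cuticle transcripts and the ctenidin-1-like transcript in MA (left) and MP (right) of each female, as CPM + 0.1 on a log axis, with the last digits of the identifier where a name occurs more than once. Lines keep 1 direction in all 5 animals, while animals 3 and 5 lie lowest for TweedleE and Muc91C-like (XM_023044297.1) and highest for *ebony* and ctenidin-1-like.

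Calls outside these lists included signalling, protease and receptor transcripts. In the EGF receptor list 1 of 3 tested was higher in MA, a rhomboid family transcript (XM_023060989.1), of proteases that release EGF-type ligands, with 7.31, 6.57, 12.3, 11 and 10.3 CPM in MA and 2.39, 1.23, 3.87, 1.61 and 3.31 CPM in MP (log2FC = 2.00, SE 0.25, adjusted p = 0.0393). Over all transcripts tested, 0.493% were higher in MA. The venom serine protease-like transcript XM_023050422.1 was among the 5 smallest p-values in MP, with 22.6, 24.8, 105.0, 23.7 and 144.0 CPM in MA and 86.4, 88.0, 424.0, 96.9 and 385.0 CPM in MP (log2FC = -1.84, SE 0.12, adjusted p = 0.0115, and 0.585 without the block). A serotonin receptor transcript (XM_023063195.1) reached 0.935 CPM in MA and 18.1 CPM in MP (log2FC = -3.98, SE 0.52, adjusted p = 0.0443). The 1 BMP signalling transcript tested was not called (log2FC = 0.71), and none could be matched by name for Notch signalling.

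Among unnamed transcripts, the rule picked XM_023047882.1 and XM_023045904.1 for their small p-values. XM_023047882.1 was at 13.3, 20.4, 24.3, 17.7 and 25.6 CPM in MA and at 52.2, 57.4, 78.2, 70.7 and 94.5 CPM in MP (log2FC = -1.81, SE 0.11, adjusted p = 0.0115). XM_023045904.1 had 11, 11.6, 2.45, 5.81 and 2.62 CPM in MA and 58.6, 48.7, 14.5, 39.4 and 13.5 CPM in MP (log2FC = -2.43, SE 0.13, adjusted p = 0.0115, and 0.182 without the block). In neither did the regions overlap. Of the 117 calls, 64 have no name in the sources used here, and a further 5 are named only as uncharacterized.

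Further transcripts with protein annotations were among the 10 largest log2FC values in their direction. XM_023053543.1, whose annotation is that of an H/ACA ribonucleoprotein subunit, was at 57.1, 23.6, 38.0, 16.5 and 53.2 CPM in MA and at 0.231, 0.224, 0.738, 0 and 0.306 CPM in MP (log2FC = 7.03, SE 0.53, adjusted p = 0.0123). XM_023048906.1, annotated as keratin-like, had 10.7, 24.8, 1.22, 13.7 and 1.35 CPM in MA and at most 0.308 CPM in MP (log2FC = 5.81, adjusted p = 0.0147, and 0.0538 without the block). XM_023052477.1, annotated as rich in glycine, alanine and asparagine, had 6.67, 6.07, 2.09, 4.81 and 8.36 CPM in MA and at most 0.154 CPM in MP, at least 16.6-fold (adjusted p = 0.0123). On the side of MP, a glycine-rich RNA-binding protein-like transcript (XM_023065042.1) was between 0.985 and 1.65 CPM in MA and at 5.70, 18.7, 16.7, 7.15 and 14.8 CPM in MP (log2FC = -3.09, SE 0.36, adjusted p = 0.0358).

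Of the 42 transcripts that the study named or chose for knockdown, 32 were tested here, 2 were higher in MA (*Sp8* and *rx*) and 8 were higher in MP. Over all transcripts tested, 0.493% were higher in MA and 0.408% in MP. Besides those above, the 8 included an uncharacterized transcript, XM_023064833.1, with 1.99, 2.38, 4.75, 1.87 and 1.13 CPM in MA and 20.9, 54.2, 34.3, 11.8 and 11.1 CPM in MP (log2FC = -3.33, SE 0.31, adjusted p = 0.0186). A zinc metalloproteinase (XM_023051322.1) had no count in MA and up to 4.77 CPM in MP without being called (adjusted p = 0.284). The RNA-binding protein *mex3* (XM_023064427.1) and the adaptor *Myd88* (XM_023046672.1) had overlapping values in MA and MP, with adjusted p of 0.277 and 0.695.

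Markers of other tissues were low, with muscle as the exception. The 18 muscle transcripts, among them troponins, tropomyosin and myosin light chains, were all tested and none was called by edgeR, but 10 had an unadjusted p under 0.05, DESeq2 with the block called 11, and 11 were higher in MP of all 5 animals. Over all 12978 transcripts, 13.9% had an unadjusted p under 0.05 and 16.4% had 1 sign in all 5 animals, in either direction. DESeq2 with the block called 1232 of them. The summed level of the 18 muscle transcripts was 101.0, 79.1, 285.0, 1597 and 84.3 CPM in MA and 371.0, 129.0, 1132, 1952 and 1248 CPM in MP. The sum was higher in MP within each animal, with MA of animal 4 far above the other MA libraries. The part of this muscle signal in the calls higher in MP, *stripe* and an alpha-tubulin transcript (XM_023051588.1) among them, was not tested. The 8 photoreceptor transcripts summed to at most 0.647 CPM in MA and 0.461 CPM in MP, and 3 of them, *glass* included, had no count in any of the 10 libraries. The 2 neuron transcripts summed to 1.29 to 3.04 CPM in MA and 2.54 to 4.85 CPM in MP, the 2 glia transcripts to 0.821 to 2.41 CPM in MA and 0 to 0.922 CPM in MP, and the 1 haemocyte transcript reached 4.81 CPM in MA and 21 CPM in MP. The 2 neuron transcripts had opposite signs, and neither was called. Synaptotagmin-16 (XM_023056099.1) had no count in MA and 2.08 to 4.49 CPM in MP. The ELAV-like transcript (XM_023059495.1) had 1.29 to 3.04 CPM in MA and at most 1.31 CPM in MP. For epidermis and fat body no transcript could be matched by name, so the epidermal identity was not checked by markers. In bulk tissue, fewer cells of a type and less RNA per cell cannot be told apart.

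Males were dissected in the same way, and the same contrast was fitted within the 6 males with the animal as a block. There 676 of 12485 transcripts tested were called (5.41%), 316 in the direction of MA (2.53%) and 360 in that of MP (2.88%). Of the 64 transcripts higher in female MA, 48 (75.0%) were also called higher in male MA, which is 15.2% of the male calls in that direction. Of the 53 higher in female MP, 39 (73.6%) were also called higher in male MP, which is 10.8% of the male calls in that direction. None was called in the opposite direction in males. The test of the difference itself, female minus male log2FC over 22 libraries, called none of 13794 transcripts. The smallest adjusted p was 0.112, 695 transcripts (5.04%) had an unadjusted p under 0.05, and DESeq2 called 162.

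Among named transcripts 4 shared the smallest adjusted p of the sex difference, 0.112, and their differences had both signs. *Rx* had a log2FC of 3.06 in females and 1.61 in males (XM_023059686.1, difference 1.44, SE 0.24, adjusted p = 0.112). An uncharacterized transcript that the study chose for knockdown, XM_023049046.1, was at 1.27, 0.657, 3.16, 2.20 and 1.20 CPM in female MA and 0.539, 1.57, 2.58, 1.23 and 0.367 CPM in female MP, against a log2FC of -2.76 in males (difference 3.32, SE 0.53, adjusted p = 0.112). The ACP-20-like transcript XM_023064424.1, at 5.47 CPM or more in female MP, averaged 0.264 CPM in MA and 0.141 CPM in MP of males (difference -8.23, SE 1.35, adjusted p = 0.112). It was too low to be tested in the male contrast, so the size of this difference rests on male values near the floor. XM_023047533.1 had a log2FC of -3.91 in females and -0.64 in males (difference -3.27, SE 0.49, adjusted p = 0.112). For *hedgehog* the log2FC was -6.62 in females and -6.18 in males (XM_023044715.1, difference -0.55, SE 1.64, adjusted p = 1.0), so the size of this difference is poorly fixed.

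The same 5 females allow the medial contrast to be set against the lateral one, LatA over LatP, with left and right counts of an animal added. On its own, the lateral contrast called 116 of 13569 transcripts (0.855%), 54 higher in LatA (0.398%) and 62 higher in LatP (0.457%). All 5 animals entered, animal 2 included. Of the 64 transcripts higher in MA, 15 (23.4%, and 27.8% of the lateral calls) were higher in LatA too. Of the 53 higher in MP, 8 (15.1%, and 12.9% of the lateral calls) were higher in LatP too, and none of the 117 was called in the opposite direction. The test of the difference, (MA minus MP) minus (LatA minus LatP), called 214 of 14285 transcripts (1.5%), 92 positive (0.644%) and 122 negative (0.854%). Without animal 2, 158 were called, and without animal 4 only 18. The levels of lateral pieces below are means of left and right, scaled over all 66 libraries.

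*Hedgehog* had the smallest adjusted p of this test among the named transcripts. LatA had 2.24, 2.66, 2.3, 2.34 and 1.34 CPM and LatP had 10.3, 11.6, 6.96, 8.51 and 7.33 CPM (XM_023044715.1, log2FC = -2.02, SE 0.17). The LatA values lay above every MA value and below every LatP value, and the contrasts differed by -4.63 (SE 0.33, adjusted p = 2.30e-05). *Sp8* had 7.33, 7.04, 1.84, 4.42 and 4.31 CPM in LatA and 0.596, 0.198, 0.0832, 0.142 and 0.201 CPM in LatP (XM_023050882.1, difference 5.36, SE 0.76, adjusted p = 0.00441). For *hedgehog* and *Sp8* a medial region was at or under the floor in every library. The size of both differences therefore depends on a small added count. *Wnt6* was at 25.3, 27.7, 70.1, 39.5 and 58.9 CPM in LatA and at 6.82, 9.98, 20.8, 6.86 and 30.9 CPM in LatP (XM_023058527.1), so that of the 4 regions only MP lay under 1 CPM (difference 2.99, SE 0.52, adjusted p = 0.0136).

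Of the 104 named or listed transcripts the test called 19, of which 14 had been chosen as calls of the medial contrast. For some the lateral contrast was near 0 or of the other sign. The glycine-rich transcript XM_023045749.1 had 10.8, 8.01, 0.394, 4.98 and 2.83 CPM in LatA and 20.7, 12, 3.83, 8.65 and 8.57 CPM in LatP (lateral log2FC = -1.38, SE 0.41; difference 10.14, SE 0.86, adjusted p = 6.49e-05). Its MP libraries were all at or under the floor, so the size of this difference depends on a small added count. The cuticular protein 73D transcript (XM_023058509.1) had a lateral log2FC of 0.05 (SE 0.19; difference 2.94, SE 0.35, adjusted p = 0.00142), and the rhomboid family transcript (XM_023060989.1) one of -0.13 (SE 0.13; difference 2.05, SE 0.33, adjusted p = 0.00813). The larger contrast was not always the medial one: *tailup* had a log2FC of 0.96 medially and 3.05 laterally (XM_023047735.1, difference -2.12, SE 0.31, adjusted p = 0.0048), and a transcript with cuticular protein 76Bd as its best hit -1.43 medially and 2.48 laterally (XM_023047518.1, difference -3.88, SE 0.52, adjusted p = 0.0034). For other transcripts no difference between the contrasts was called: *rx* had a lateral log2FC of 3.40 (XM_023059686.1, difference -0.34, SE 0.35, adjusted p = 0.735) and *ebony* one of 2.39 (XM_023055814.1, difference 0.05, SE 0.30, adjusted p = 0.981).

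**Figure D5:**
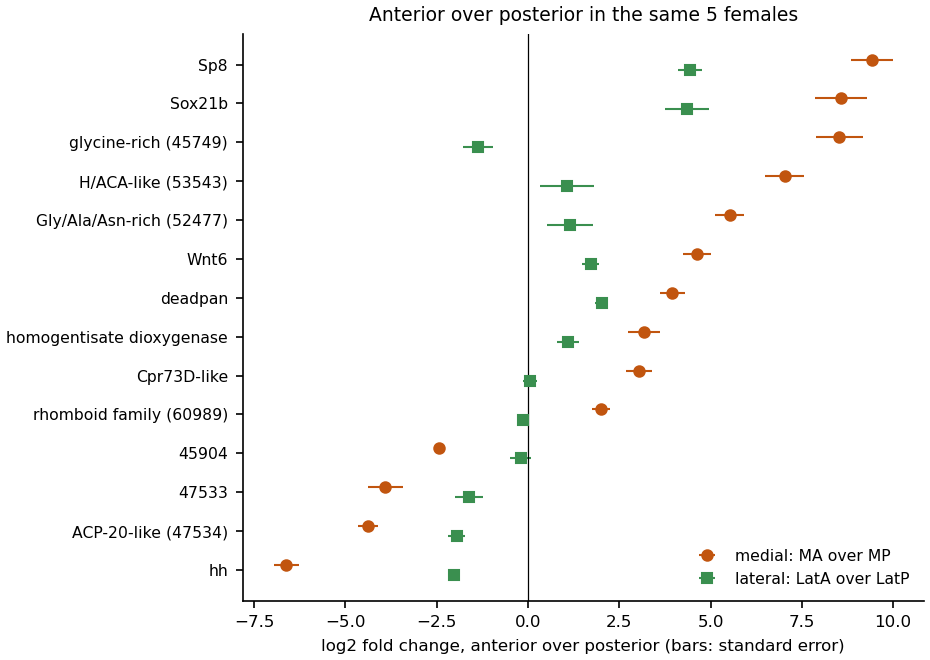
The log2FC of MA over MP (orange circles) and of LatA over LatP (green squares) in the same 5 females, with standard errors, for the 14 transcripts called in the medial contrast, and named for it, whose medial and lateral contrasts differed at an adjusted p under 0.05. Values run from 9.42 and 4.44 for *Sp8* to -6.62 and -2.02 for *hh*, and since the transcripts were chosen by their medial calls, the larger medial values are no finding. For *Sp8*, *Sox21b*, XM_023045749.1, XM_023052477.1 and *hh* a medial region was at or under the floor in every library. Their medial values depend on a small added count.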

How the data were processed

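The authors trimmed single-end reads with Trimmomatic 0.32, aligned them with Bowtie2 2.3.2 to the gene models of *O. taurus* genome v2.0 and deposited RSEM 1.3.0 expected counts for 23725 RefSeq transcripts in 66 libraries, without normalization. After rounding, each contrast was fitted by edgeR 4.0.16 under R 4.3.3, with limma 3.58.1 loaded, TMM scaling, the quasi-likelihood F-test and the animal as replicate block; an adjusted p given with no tool is edgeR's. A transcript was tested where 2 or more of the compared libraries exceeded 1 CPM. SE is the log2FC divided by the root of F. The study's own test was DESeq2 without the block; DESeq2 1.42.0 served as an alternative. The pairing comes from the animal number in the labels: deviations from the region means correlated at 0.395 to 0.557 between pieces of the same animal, and at most 0.382 between pieces of different animals. No pair of libraries within a region was a repeat (smallest chi-square per degree of freedom 68.8 over 20 pairs). The fits were tested on simulated counts.

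The members and gene lists were chosen with earlier results of these data known. Single transcripts are those the study names, and, among calls with 1 sign in all 5 animals and a mean of at least 1 CPM, the 10 largest log2FC and 5 smallest p in each direction, and called list members; uncalled list members and transcripts of the other tissues or the abundant set were chosen after their values were seen. Names come from the study's tables of its own calls, without their values. Of the transcripts, 15104 (63.7%) matched a gene of assembly IU_Otau_3.0, a later build used only for gene identity and neighbours. Transcripts of 1 patterning factor and 1 Wnt ligand were not analysed here. Alternatives were no block, DESeq2 with and without it, RLE scaling, other filters, gene sums, all 30 female libraries in 1 fit, stricter thresholds, each animal left out, and CPM on plain library totals.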

Additional observations from a re-analysis of the deposited data

Results flagged for a closer look

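In 19 of 170 groups of 5 libraries of a named or listed transcript that reached 1 CPM, 1 library stood apart by Dixon's criterion (11.2%). The criterion picks about 1 in 20 groups where values are normally distributed. CPM values are skewed and often 0, so this share does not show an excess of outlying libraries. In MA of animal 3, *mirror* (XM_023058224.1) was at 5.90 CPM against a median of 1.81, *knirps* (XM_023047875.1) at 2.88 against 0.401, and the *otd* transcript XM_023053509.1 at 2.45 against 0. In other MA libraries, the ACP-20-like transcript XM_023047534.1 was at 2.54 CPM in animal 1 (median 0.534), *Wnt6* (XM_023058527.1) at 15.3 CPM in animal 5 (median 12.5) and homogentisate 1,2-dioxygenase (XM_023060909.1) at 2.54 CPM in animal 4 (median 4.6). In MP, *aristaless* (XM_023054237.1) was at 3.47 CPM in animal 1 (median 7.46), a serine protease (XM_023064084.1) at 31.5 CPM in animal 3 (median 9.07) and the uncharacterized XM_023055853.1 at 106.0 CPM in animal 2 (median 32.8). Among listed transcripts without a call, the MA libraries were *notum* (XM_023055718.1) at 0.647 CPM in animal 3 (median 1.4), *fd102C* (XM_023046601.1) at 15.9 in animal 5 (median 3.69), XM_023052985.1 at 3.09 in animal 3 (median 0.0708), XM_023047530.1 at 95.0 and XM_023051466.1 at 3.07 in animal 4 (medians 36.2 and 0.354), XM_023046951.1 at 159.0 in animal 3 (median 2.2) and XM_023060863.1 at 16.8 in animal 2 (median 0.534). The MP libraries were XM_023047518.1 at 42.5 CPM and XM_023045748.1 at 1.39 CPM in animal 1 (medians 7.61 and 0) and XM_023060863.1 at 15.6 CPM in animal 2 (median 0.245).

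The medial and lateral contrasts of 19 of the 104 named or listed transcripts differed in edgeR's test of the difference itself, given here as the medial minus the lateral log2FC. Positive differences were 5.36 for *Sp8* (XM_023050882.1), 4.76 for *Sox21b* (XM_023057866.1), 10.14 for the glycine-rich XM_023045749.1, 6.14 for XM_023053543.1, 4.69 for XM_023052477.1, 2.99 for *Wnt6* (XM_023058527.1), 1.87 for *deadpan* (XM_023061919.1), 2.01 for homogentisate 1,2-dioxygenase (XM_023060909.1), 2.94 for XM_023058509.1, 2.05 for the rhomboid family transcript XM_023060989.1, 3.70 for *scratch* (XM_023053479.1) and 4.89 for *argos* (XM_023055616.1). Negative differences were -4.63 for *hedgehog* (XM_023044715.1), -2.38 for XM_023047534.1, -2.29 for XM_023047533.1, -2.23 for XM_023045904.1, -5.14 for *invected* (XM_023054032.1), -2.12 for *tailup* (XM_023047735.1) and -3.88 for XM_023047518.1. Their adjusted p ranged from 2.30e-05 for *hedgehog* to 0.0476 for XM_023047533.1. For *Sp8*, *Sox21b*, XM_023045749.1, XM_023052477.1, *hedgehog* and *invected* a medial region was at or under the floor in every library. The size of those differences depends on a small added count.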

How the results depend on the processing

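The counts of calls (64 higher in MA, 53 higher in MP) moved with the test and its pooling, and the cause was not tested. DESeq2 called 589 and 643 with the replicate block and 223 and 213 without it; edgeR without the block called 44 and 33, and 43 of its 77 calls were among the 117. Gene sums gave 226 and 189, and 1 fit over all 30 female libraries 393 and 293, with 116 of the 117 calls kept. The filter gave 34 and 44 with no minimum and 103 and 78 with over 1 CPM in 5 libraries. In edgeR, the study's threshold (an adjusted p under 0.001 with a log2FC over 2) left 0 and 0 with the replicate block. Without the block it left 3 and 1 in edgeR. The study applied this threshold to DESeq2 without the block, and DESeq2 was not counted at it here. Leaving out 1 animal gave 0 to 13 higher in MA and 0 to 19 higher in MP, which comes with 1 animal fewer in every fit. The sex test called 162 in DESeq2 and 0 elsewhere. The medial against lateral test (214) called 35 without the replicate block, 1166 in DESeq2, 120 with no minimum, and 18 to 158 with 1 animal left out.

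The 42 named and called transcripts kept their direction in every alternative that tested them, and 14 were not called without the replicate block. With animal 1, 2, 3, 4 or 5 left out, 26, 26, 31, 42 and 42 of them were not called. With no minimum count 6 were not called, and in DESeq2 without the block 4. Only uncalled transcripts changed sign: *dishevelled* (XM_023050771.1) was at -0.02 without the replicate block, -0.04 in DESeq2 without it, -0.32 in gene sums and between -0.08 and 0.73 with 1 animal left out. With 1 animal left out, *knirps* (XM_023047875.1) ranged between -0.11 and 0.86, Fish-lips (XM_023059293.1) between -0.81 and 0.11, and XM_023054389.1 between -0.33 and 0.26, and the last was at 0.03 in the fit of 30 libraries. CPM on plain library totals moved no named mean by more than its SD.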

Other observations

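Several calls outside the gene lists, chosen after their values were seen, belong to immune and adhesion proteins. The serine protease Hayan-like transcript XM_023063173.1, from a family that activates melanization and Toll signalling in flies, had 3018, 2466, 5455, 8158 and 4680 CPM in MA and 794.0, 868.0, 573.0, 1546 and 501.0 CPM in MP (log2FC = 2.46, SE 0.33, adjusted p = 0.0449). The transcript with the recognition protein GNBP3 as its best fly hit (XM_023048645.1) had the opposite direction, with 5.16, 3.20, 12.7, 6.41 and 13.4 CPM in MA and 59.0, 46.6, 88.4, 46.5 and 52.3 CPM in MP (log2FC = -2.98, SE 0.30, adjusted p = 0.0258). Toll-6 (XM_023052296.1), a cell surface receptor, measured 4.53, 8.54, 12.8, 5.14 and 15.4 CPM in MA and 1.77, 1.35, 3.38, 1.08 and 2.02 CPM in MP (log2FC = 2.22, SE 0.28, adjusted p = 0.0412, and 0.0715 without the block). None of these 3 had overlapping regions. The adhesion protein fasciclin 1 (XM_023053807.1) was higher in MA as well (log2FC = 2.51, SE 0.30, adjusted p = 0.0393).

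The alpha-tubulin transcript XM_023051588.1 had 517.0, 885.0, 153.0, 333.0 and 76.4 CPM in MA and 2408, 2828, 517.0, 1535 and 672.0 CPM in MP (log2FC = -2.19, SE 0.24, adjusted p = 0.0322, and 0.459 without the block). Animals 3 and 5 were lowest in both regions, and the regions overlapped. An unnamed abundant transcript, XM_023055119.1, was at 1712, 2314, 3561, 2441 and 1748 CPM in MA and 4335, 9798, 10461, 6703 and 5145 CPM in MP, without overlap (log2FC = -1.60, SE 0.15, adjusted p = 0.0176, and 0.0968 without the block). The transcript XM_023056446.1 divided animals rather than regions, with 0.397, 27925, 18453, 1.34 and 0.637 CPM in MA and 0.616, 36646, 8779, 0 and 0.306 CPM in MP, so that animals 2 and 3 alone had it at a high level.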
